A study of Mus musculus with 25 samples.

Results

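Tacr1, Tacr3 and Cckbr are 3 peptide receptors of the brain whose probes were read on the hypothalamus arrays, out of 8726 genes that were both named by the platform annotation and measured. They are given by gene name, a choice made with earlier results of these data known, and each had 1 probe, designed to the transcripts NM_009313 (Tacr1), NM_021382 (Tacr3) and NM_007627 (Cckbr). Tumor hypothalamus came from male BALB/c mice, aged 8 weeks at injection, injected under the skin with 1000000 cells of the CT-26.WT line in 300 µl PBS. This is a colon carcinoma line derived from the same mouse strain. The control mice had received 300 µl PBS alone, and mice of both groups were killed after 18, 72 or 192 h. Every array held tumor RNA in one dye and PBS RNA in the other, so that its ratio is itself the comparison.

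Of 25 arrays, 19 were used, and at 18, 72 and 192 h they form 5, 2 and 4 replicates. The other 6 were left out because, matched by probe name, the brightness of their spots was nearly unrelated to that on the rest (median Spearman rho 0.0228 over 114 pairs, against 0.356 over 94 pairs between platforms among the arrays used). Replicates 1 and 2 were polyA RNA, replicate 1 with tumor in Cy5 and replicate 2 with tumor in Cy3. The other 7 replicates were total RNA, each hybridised in both dye orientations. RNA type goes together with print platform and with replicate number, so these cannot be told apart. Whether a replicate was a single mouse or a pool is not stated in the labels. The p-values thus reflect only how far these samples vary, which may be technical. The direction of the ratios is likely rather than settled, because the scanner files name no dye and list channels A and B. Following the order in which the labels list the dyes, A was taken as Cy3 and B as Cy5. Over the named probes, ratios from a loess curve per print block then correlated positively with the authors' own values on 19 of 19 arrays (r of 0.71 to 0.90). Single genes could still differ in sign, as Tacr1 did in 72 h replicate 4 with tumor in Cy3 (0.85 here, -0.07 in the authors' units).

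Between 3056 and 9839 of 10080 spots were measured per array. The SD of the log2 ratios over genes lay between 0.21 and 0.56 in 10 replicates and was 0.90 in 18 h replicate 2, which stands apart. The tissue was checked against 19 hypothalamic genes, of which 14 were named on the arrays. They spanned median brightness percentiles of 27.4 to 97.7, with 9 of 14 over 50. Oxt (oxytocin) was measured on 19 arrays at a median brightness percentile of 97.7, Avp (vasopressin) on 16 arrays at 97.1 and Pmch (melanin-concentrating hormone) on 15 arrays at 97.6, while the transcription factors Otp and Sim1 were at 27.4 and 30.3. Some markers of other regions were also bright, with Neurod6 of cortex and hippocampus at 93.0, Nrgn at 88.0 and Pitx1 of the pituitary at 88.5. These were the brightest of their lists. The median was 65.4 for the hypothalamic genes and 37.8 for cortex and hippocampus (3 of 7 over 50). It was 42.0 for pituitary (2 of 5), 42.6 for striatum and basal forebrain (1 of 2) and 56.5 for thalamus and habenula (3 of 3).

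All 3 receptors belong to the G protein-coupled receptors that act mainly through Gq, phospholipase C and intracellular calcium. Tacr1 encodes the NK1 receptor, whose preferred ligand is substance P, a product of Tac1. Tacr3 encodes the NK3 receptor for neurokinin B, a product of Tac2 in the mouse, and is known in the hypothalamus for the kisspeptin neurons of the arcuate nucleus that drive pulses of gonadotropin-releasing hormone. Cckbr encodes the receptor that binds both cholecystokinin and gastrin and is the main cholecystokinin receptor of the brain, while Cckar is best known for the satiety action of cholecystokinin.

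The signal of the 3 probes differed in how often it could be read at all. A spot was used in a scan where both channels were above 0. Each array had 3 scanner files, read here as scans of one slide, which gives 57 scans in all. Both channels of Cckbr were above 0 in 50 of 57 scans, those of Tacr3 in 25 and those of Tacr1 in 20. Cckbr gave a ratio on 19 of 19 arrays, Tacr3 on 13 and Tacr1 on 11, where the median gene had 12 and 236 genes had all 19. All 3 scans gave a ratio on 3 arrays for Tacr1, 5 for Tacr3 and 14 for Cckbr. A single scan did so on 5 arrays for Tacr1, 6 for Tacr3 and 2 for Cckbr.

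Which RNA gave signal for the tachykinin receptors depended on the dye it carried. Where tumor RNA was in Cy5, Tacr1 was above 0 for tumor RNA in 7 of 27 scans and for PBS RNA in 22. Where tumor RNA was in Cy3, it was above 0 for tumor RNA in 21 of 30 scans and for PBS RNA in 16. Tacr3 was above 0 for tumor RNA in 6 of 27 scans and for PBS RNA in 20 with tumor in Cy5, and in 25 and 23 of 30 scans with tumor in Cy3. For both genes the channel read as Cy3 held signal more often whichever RNA it carried. Cckbr was above 0 for tumor RNA in 26 of 27 scans and for PBS RNA in 27 with tumor in Cy5, and in 28 and 25 of 30 scans with tumor in Cy3. Over all spots of these scans channel A was above 0 in 79.6% and channel B in 51.6%, so the gap between channels was also present over the arrays as a whole. Scans are repeated readings of the same arrays and are given as a description.

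**Figure D1:**
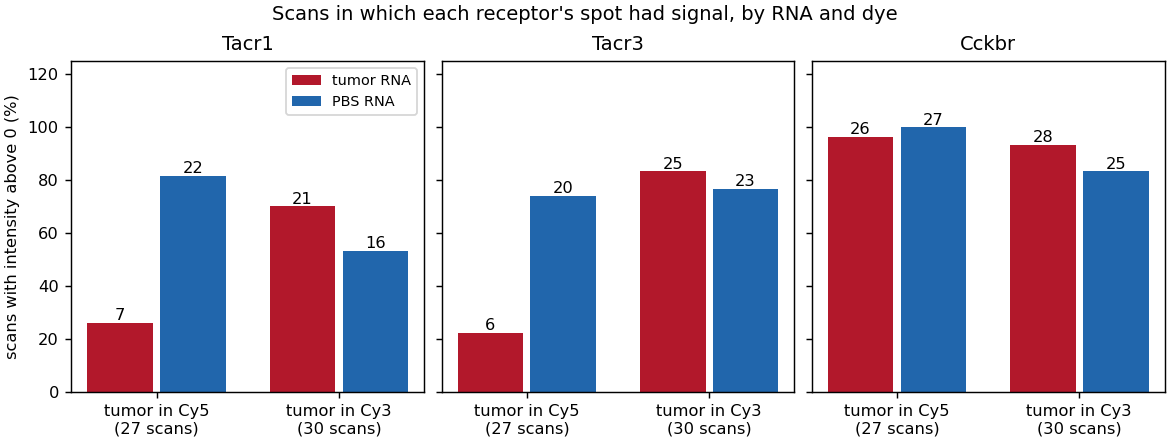
Percent of scans in which the background-subtracted intensity of each receptor's spot was above 0, for tumor RNA (red) and PBS RNA (blue), separately for arrays with tumor RNA in Cy5 (27 scans) and in Cy3 (30 scans). Numbers above the bars are counts of scans. Tumor RNA gave signal in 7 scans for Tacr1 and 6 for Tacr3 when in Cy5, and in 21 and 25 when in Cy3.

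Brightness ranks put Cckbr above the tachykinin receptors on most arrays. They are percentiles of the mean log2 intensity of both channels among the spots measured on the array, and they compare probes, not transcript levels. The median percentile was 69.7 for Cckbr (14.8 to 93.2 over 19 arrays), 49.0 for Tacr3 (11.3 to 85.5 over 13 arrays) and 33.97 for Tacr1 (0.63 to 83.4 over 11 arrays). These ranges overlap widely. The median for Tacr1 was 15.3 on 2 polyA arrays and 37.0 on 9 total RNA arrays, for Tacr3 48.4 on 2 and 49.0 on 11, and for Cckbr 69.7 on 5 and 67.6 on 14. The background-subtracted signal, divided by the local background, had a median over arrays of 1.25 in tumor RNA and 1.80 in PBS RNA for Tacr1, 1.33 and 1.68 for Tacr3, and 2.39 and 1.96 for Cckbr. Both channels reached at least the background on 7 arrays for Tacr1, 6 for Tacr3 and 15 for Cckbr. Repeated scans of one array differed with a pooled SD of 0.25 for Tacr1 (6 arrays), 0.20 for Tacr3 (7 arrays) and 0.22 for Cckbr (17 arrays) on the log2 scale.

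Tacr1 could be compared at 18 h only, and its replicates lay on both sides of 0. The log2 ratio of tumor over PBS was -0.66 in replicate 1, -1.82 in replicate 2, 0.27 in replicate 4 and 0.07 in replicate 5. Both polyA replicates were below 0 and both total RNA replicates above it. Each polyA value rested on a single scan with both channels above 0. In that scan replicate 1 had intensities of 132122 in tumor RNA and 222017 in PBS RNA, and replicate 2 had 45786 and 112590. The replicate 2 spot was among the dimmest measured on its array, at percentile 0.63. Replicate 3 had a ratio in one orientation alone, 0.38 with tumor in Cy3, and did not enter the fit.

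The fitted log2 ratio of Tacr1 at 18 h was -0.54 ± 0.25 (SE, n = 4), with a 95% interval of -1.10 to 0.03. It did not pass the threshold in limma (unadjusted p = 0.0623, adjusted p = 0.841, Benjamini-Hochberg over 5062 genes). The SE was larger than that of 98.1% of the genes tested. The fit holds a dye term, which was 0.58 for Tacr1 and takes up the gap between the 2 polyA replicates of opposite orientation, so the SE leaves that gap out. Without the dye term the SE was 0.33. The total RNA replicates alone gave 0.17, so the sign rests on the polyA arrays. Without replicate 1, or without replicate 2, the estimate was also 0.17. The model fixes this outcome, because the dye term takes up the lone polyA value that is left. The replicates left were then at -1.82, 0.27 and 0.07, or at -0.66, 0.27 and 0.07. In these bulk samples, fewer cells that express a gene and less RNA per cell cannot be told apart.

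At the later times Tacr1 was measured on 4 arrays, none of them in both orientations of a replicate. At 72 h replicate 3 was at -2.89 with tumor in Cy5, in 1 scan with intensities of 166093 in tumor RNA and 1112230 in PBS RNA. In the other 2 scans of that array tumor RNA was at 0. Replicate 4 was at 0.85 with tumor in Cy3, in all 3 scans. At 192 h replicate 3 was at -0.04 with tumor in Cy3 and replicate 4 at 0.07 with tumor in Cy5. These 72 h values were the lowest and the highest of the 11 arrays on which Tacr1 was measured, 7 of which were above 0.

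**Figure D2:**
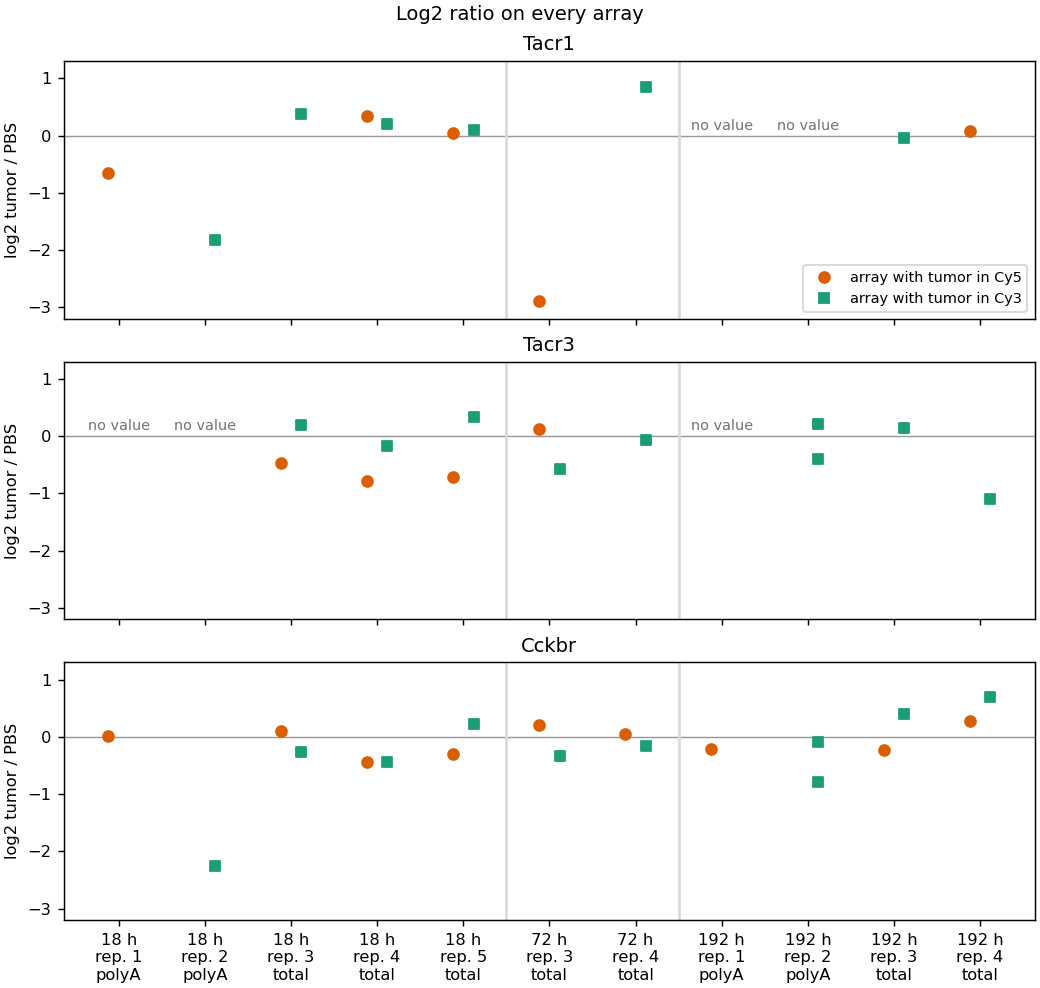
Log2 ratio of tumor over PBS on every array used, by time and replicate, for Tacr1 (top), Tacr3 (middle) and Cckbr (bottom). Circles are arrays with tumor RNA in Cy5 and squares arrays with tumor RNA in Cy3; replicates with no measured array are marked. Tacr3 at 18 h was lower with tumor in Cy5 in 3 of 3 replicates, and 18 h replicate 2 of Cckbr lies at -2.26.

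Tacr3 was below 0 in every replicate that gave a value, but by amounts smaller than the gap between dye orientations. Its log2 ratio was -0.14 in replicate 3, -0.47 in replicate 4 and -0.19 in replicate 5 at 18 h. It was -0.23 in replicate 3 at 72 h and -0.09 in polyA replicate 2 at 192 h. Single arrays were mixed, with 5 above 0 and 8 below, from -1.09 to 0.33.

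At 18 h the arrays of Tacr3 with tumor in Cy5 were at -0.47, -0.78 and -0.71, and those with tumor in Cy3 at 0.20, -0.16 and 0.33. The Cy5 array was the lower in 3 of 3 replicates, by 0.67, 0.62 and 1.04. At 72 h replicate 3 ran the other way, with 0.12 in Cy5 and -0.58 in Cy3. The 2 arrays of 192 h replicate 2, both with tumor in Cy3, were at 0.22 and -0.40, so that arrays of like orientation also differed. The lowest value, -1.09, came from 192 h replicate 4 with tumor in Cy3, in 1 scan with 114685 in tumor RNA and 307734 in PBS RNA.

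The fitted value of Tacr3 at 18 h was -0.27 ± 0.14 (SE, n = 3), with a 95% interval of -0.57 to 0.04. It did not pass in limma (unadjusted p = 0.0826, adjusted p = 0.866), with 3 of 3 replicates below 0. All of these were total RNA, since neither polyA array of 18 h gave a ratio. Its SE was larger than that of 45.3% of the genes tested. The later times had 1 replicate each and were not tested.

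Cckbr had a value in all 11 replicates, and its fitted ratio at 18 h was the lowest of its 3 times and was largely set by 1 replicate. Its log2 ratio at 18 h was 0.01 in replicate 1, -2.26 in replicate 2, -0.09 in replicate 3, -0.44 in replicate 4 and -0.04 in replicate 5. Replicate 2 lies far below the others, which span 0.01 to -0.44. The 3 scans of its single array gave 72660, 121441 and 145561 in tumor RNA and 269966, 567600 and 731878 in PBS RNA. Tumor RNA was the lower in each scan. The tumor signal on this array averaged 0.433 of its local background and the PBS signal 2.37 of its own, so the size of the ratio rests on a signal below its background. Of the ratios measured on that array, 1.22% were lower.

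The fitted value of Cckbr at 18 h was -0.56 ± 0.21 (SE, n = 5), with a 95% interval of -1.004 to -0.12 and 4 of 5 replicates below 0. It ranked 101 of 5062 genes by p and did not pass (limma, unadjusted p = 0.0160, adjusted p = 0.760). Its dye term of 0.63 takes up much of the gap between the polyA replicates, and without the dye term the SE was 0.27. That term comes from the polyA replicates alone. In the 7 total RNA pairs the dye effect of Cckbr was -0.03 ± 0.09 (SE). Without 18 h replicate 2 the estimate was -0.17. In the authors' deposited table the ratio of that array was -0.31 on the authors' own log scale, whose base is not stated.

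At the later times Cckbr lay near 0. At 72 h its replicates were at -0.06 and -0.05, and the fitted value was -0.06 ± 0.33 (SE, n = 2; limma adjusted p = 0.993). The arrays behind these means were further apart, with 0.21 in Cy5 and -0.33 in Cy3 for replicate 3, and 0.06 and -0.16 for replicate 4. At 192 h the polyA replicates were at -0.21 and -0.43 and the total RNA replicates at 0.08 and 0.49. The highest array value, 0.70 in replicate 4 with tumor in Cy3, rested on 1 scan with the tumor signal at 0.484 of its background. The fitted value at 192 h was -0.02 ± 0.23 (SE, n = 4; limma adjusted p = 0.9989). Without replicate 1 the fit gave 0.39, while the replicates left were at -0.43, 0.08 and 0.49. The dye term then shifts the lone polyA value, so 0.39 is not their mean. The 95% intervals, -0.75 to 0.64 at 72 h and -0.51 to 0.48 at 192 h, leave room for a change in either direction.

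**Figure D3:**
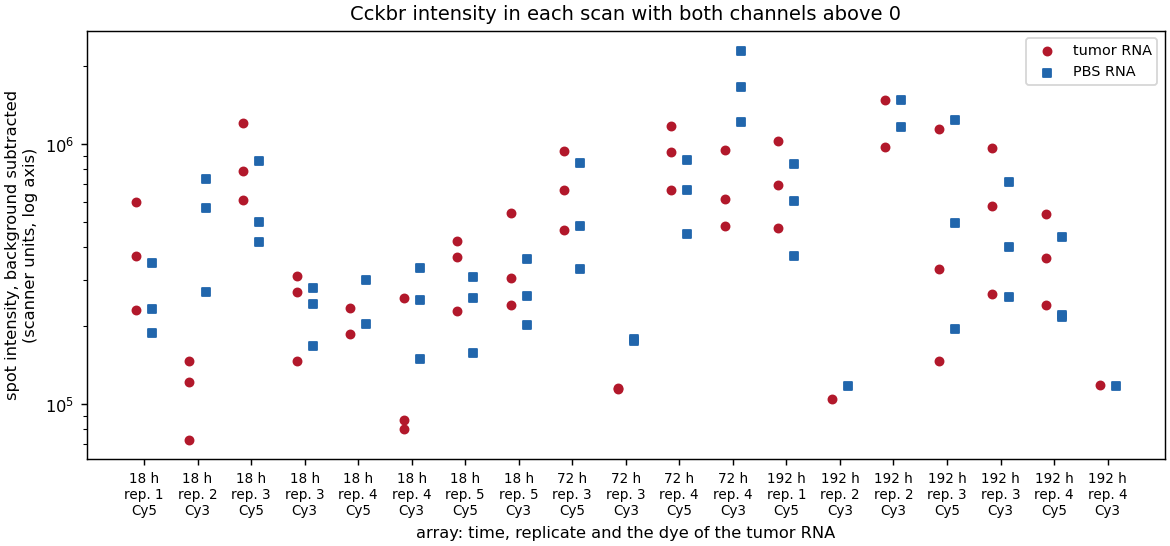
Background-subtracted spot intensity of Cckbr on a log axis, in scanner units, for every scan with both channels above 0, by array. Red circles are tumor RNA and blue squares PBS RNA, and the last line of each label gives the dye of the tumor RNA. On the array of 18 h replicate 2 tumor RNA lay between 72660 and 145561 and PBS RNA between 269966 and 731878.

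Over the 3 times, given equal weight, Cckbr averaged -0.21 ± 0.15 (SE, n = 11), with a 95% interval of -0.53 to 0.11 (limma adjusted p = 0.996). Of its replicates, 3 were above 0 and 8 below. Without 18 h replicate 2 the average was -0.08. Without 192 h replicate 1 it was also -0.08, which includes the shift by the dye term at 192 h. The ratio at 192 h minus that at 18 h was 0.55 ± 0.31 (SE; limma adjusted p = 0.812), and 0.15 without 18 h replicate 2. The ratio at 72 h minus that at 18 h was 0.51 ± 0.39 (SE; adjusted p = 0.998), and at 192 h minus 72 h it was 0.04 ± 0.40 (SE; adjusted p = 0.998). None of these differences passed an adjusted p of 0.05, and Tacr1 and Tacr3 could not be compared between times. The SD of the Cckbr replicates was 0.97 at 18 h, 0.007 at 72 h (n = 2) and 0.40 at 192 h. The 18 h SD was largely set by replicate 2.

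**Figure D4:**
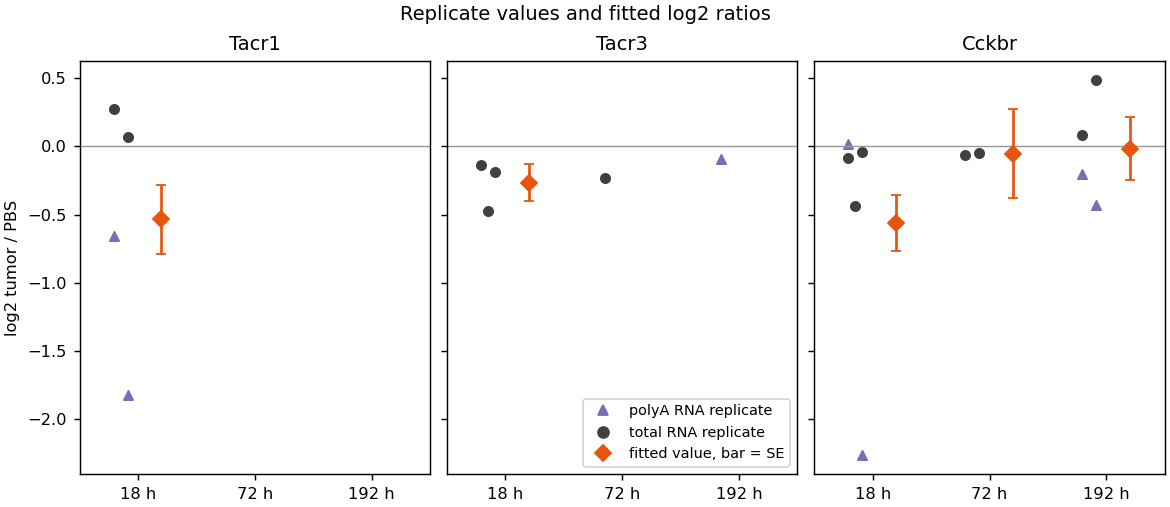
Log2 ratio of tumor over PBS for each replicate (triangles polyA RNA, circles total RNA) and the fitted value with its SE (diamond and bar) where a time was tested. At 18 h the fitted values are -0.54 for Tacr1, -0.27 for Tacr3 and -0.56 for Cckbr, and those of Cckbr at 72 and 192 h are -0.06 and -0.02.

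The dye's own effect was measured in the total RNA replicates as the ratio in Cy5 minus the ratio in Cy3, divided by the number of orientations (2). It was -0.20 ± 0.15 for Tacr3 (SE, 4 pairs, 1 above 0; limma adjusted p = 0.705) and -0.03 ± 0.09 for Cckbr (SE, 7 pairs, 3 above 0; adjusted p = 0.926). Neither passed, where 33 of 5813 genes did (0.568%), and 8.89% were under an unadjusted p of 0.05. Tacr1 had both orientations in 2 replicates, with values of 0.07 and -0.03 on this measure, and was not tested. The dye terms of the fit, 0.58 for Tacr1 and 0.63 for Cckbr, were larger than these measured effects. They come from the polyA replicates alone, where orientation goes with replicate number, so dye and replicate cannot be told apart. For Cckbr the orientations of one replicate differed by up to 0.63 on the log2 scale, more than its replicate values of total RNA differed at 18 h.

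None of the 3 receptors passed an adjusted p of 0.05 at any time, and no gene did, with 0% of 5062 genes called at 18 h, 0% of 1933 at 72 h and 0% of 2802 at 192 h in limma. Counted without adjustment, 295 genes had a p under 0.05 at 18 h (5.83%), 33 at 72 h (1.71%) and 124 at 192 h (4.43%). For the average and the differences 192 h minus 18 h, 72 h minus 18 h and 192 h minus 72 h the adjusted count was also 0, and 1.81%, 6.26%, 1.95% and 3.06% of genes were under the unadjusted threshold. Cckbr at 18 h was among these 295, and the other values of the receptors were not. The fitted values at 18 h were lower for 0.731% of genes than for Cckbr, for 0.869% than for Tacr1 and for 6.34% than for Tacr3.

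**Figure D5:**
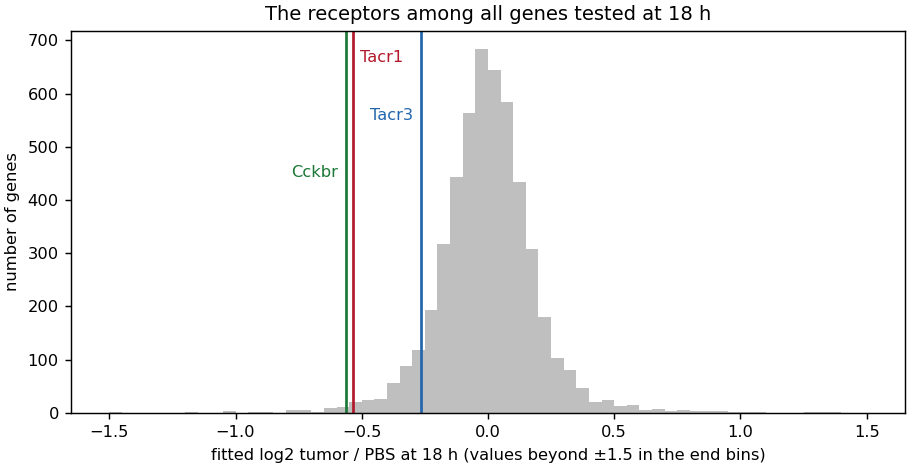
Number of genes by fitted log2 ratio of tumor over PBS at 18 h, over the 5062 genes tested, with values beyond the axis placed in the end bins. Vertical lines mark Cckbr at -0.56, Tacr1 at -0.54 and Tacr3 at -0.27, all left of the centre of the distribution.

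The receptors did not share one pattern over replicates. Cckbr and Tacr3 had the same sign in 5 of 5 replicates that measured both, all of them below 0, but on single arrays in 9 of 13. Tacr1 shared its sign with Cckbr in 1 of 4 and with Tacr3 in 0 of 2. Among 2298 genes compared with Cckbr over at least 8 replicates, the most alike by Pearson r of the replicate log2 ratios were Septin3 (r = 0.99, 8 replicates), Ddr2 (0.98, 8), Morf4l2 (0.97, 9), Foxn3 (0.97, 8) and Dhrs4 (0.96, 9). Without 18 h replicate 2 these were 0.74, 0.78, 0.57, 0.35 and 0.60. The likeness is a description over the same arrays and rests in part on that replicate. Tacr1 with 4 replicates and Tacr3 with 5 had too few for such a comparison.

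Genes that make, process or cut the ligands lay on both sides of 0 at 18 h. Of 16 genes listed, 9 were on the arrays and 7 were tested, with 2 above 0, 5 below, none called and a median of -0.04, against -0.002 over all genes tested. Tac1, the substance P precursor and named here for that role outside the rule for examples, was at -0.29 ± 0.15 at 18 h (SE, n = 5). At 192 h the fit gave 0.20 ± 0.21 (SE, n = 3), above each of its replicates. These were at 0.16 in polyA replicate 2 and at 0.04 and -0.13 in total RNA. The dye term shifts the lone polyA value, so the fitted value at 192 h is not their mean. Cpe, a carboxypeptidase that trims peptide hormones, was at -0.44 ± 0.16 at 18 h (SE, n = 4). Tpp2, a peptidase able to inactivate cholecystokinin, was at 0.44 ± 0.14 at 18 h (SE, n = 4). The lowest 18 h replicate of Tac1 (-1.42) and of Cpe (-1.39) was replicate 2, and their total RNA replicates averaged -0.04 and -0.16. The highest 18 h replicate of Tpp2 (0.93) was also replicate 2, and its total RNA replicates averaged 0.28. Averaged over the times, Cpe was at -0.08 and Tpp2 at 0.00. Scg2, a granin of secretory vesicles, was at 0.24 ± 0.13 at 18 h (SE, n = 5), with its highest value, 0.89, in replicate 4. Tac2 and Cck, which encode the neurokinin B and cholecystokinin precursors, were listed but were not among the genes named and measured on the arrays.

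The remaining receptors of both families, Tacr2 (the NK2 receptor) and Cckar, had values in 3 replicates at 18 h. Tacr2 was at -2.00 in polyA replicate 1, -0.25 in replicate 4 and 0.03 in replicate 5, and Cckar at -0.15, 0.58 and -0.19. The fit gave -0.11 ± 0.17 for Tacr2 and 0.20 ± 0.21 for Cckar (SE). These are the means of the 2 total RNA replicates, because the dye term takes up the lone polyA value at 18 h. Neither gene passed in limma. Of 11 genes of Gq signalling on the arrays, 8 were tested at 18 h, with 4 above 0, 4 below and a median of -0.05. Prkcb, a protein kinase C that Gq-coupled receptors activate, was at -0.23 ± 0.11 (SE, n = 5). Its polyA replicates were at -0.38 and -0.61, and its total RNA replicates averaged -0.06. Of 6 genes of receptor desensitisation, 4 were tested, with 1 above 0, 3 below and a median of -0.11, and Dnm1, a dynamin of endocytosis, averaged -0.19 ± 0.09 over the times (SE, n = 9).

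Among other Gq-coupled peptide receptors, 4 were tested at 18 h, with 3 above 0, 1 below and a median of 0.01. Ntsr2, a neurotensin receptor, was at 0.20 ± 0.13 (SE, n = 5), with its highest value, 0.77, in replicate 4. Nmur1, a neuromedin U receptor, was at 0.00 ± 0.13 (SE, n = 4). Its replicates were at -0.19 in polyA replicate 1 and at 0.11, -0.27 and 0.02 in total RNA. Of the kisspeptin neuron and reproductive genes 3 were tested, with 1 above 0, 2 below and a median of -0.10. Gnrh1, the precursor of gonadotropin-releasing hormone, was at -0.10 ± 0.12 (SE, n = 4). Its replicates were at 0.07 in polyA replicate 1 and at 0.14, -0.26 and -0.08 in total RNA. For Nmur1 and Gnrh1 the dye term shifts the lone polyA value, so neither fitted value is the mean of its replicates. No gene of any of these lists was called in limma at 18, 72 or 192 h. The lists are small, and 49.3% of all genes tested at 18 h were above 0.

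Marker lists of regions and cell types were read in the same way, with no gene called. At 18 h 4 of 12 hypothalamic markers were above 0 (median -0.09), 2 of 5 of cortex and hippocampus (-0.07), 1 of 1 of striatum and basal forebrain (0.01), 2 of 3 of thalamus and habenula (0.05) and 2 of 2 of pituitary (0.22). Above 0 were also 4 of 10 pan-neuronal markers (-0.01), 1 of 3 of astrocytes (-0.23), 2 of 5 of microglia (-0.14), 0 of 2 of oligodendrocytes (-0.20) and 1 of 1 of endothelial cells (0.13). Their part in the values of the receptors was not tested.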

How the data were processed

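Hypothalamic RNA of tumor-bearing and PBS mice was measured on 2-colour oligonucleotide arrays. Per the file headers, the deposited scanner values were intensities per spot in channels A and B, after subtraction of the local background, which was listed as well. The authors also deposited log ratios for each spot, read here as natural log. They were compared with log2 ratios computed here with a loess curve per print block. Their SD was 0.587 times as large over all named probes and 0.760 times among the brightest, and a natural log would give 0.693. The base is not stated, and the table served only as an alternative. The quantification software is not given in the sources used here.

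Per scan, log2 ratios were normalized by one loess curve (span 0.3, 4 iterations), scans were averaged, arrays turned to tumor over PBS, and orientations averaged. A total RNA replicate needed both orientations. The brightest probe stood for a gene. One limma 3.58.1 model (R 4.3.3, with the data.table package in version 1.17.8) over 11 replicates had one coefficient for each time plus a dye term, and p-values were adjusted over all genes tested. A gene was tested from 3 replicates on at 18 and 192 h and from 2 at 72 h. The steps were tested on simulated data.

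Samples with the same replicate number at different times correlated in their deviations at r of 0.549 and 0.387 for polyA replicates 1 and 2, which also share dye orientation, and at -0.065 to 0.115 for the 6 total RNA pairs. As not every pair was over 0.1, the numbers were not used to pair samples. The receptors, the gene lists and the arrays used were chosen with earlier results of these data known. Genes of a list were named by the smallest p on the average of the times and the value nearest 0, at most 4 a list. Probe sequences and genome coordinates were not used here. Alternatives covered normalization, background, the dye term, RNA type, filters and leaving out each replicate.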

Additional observations from a re-analysis of the deposited data

Results flagged for a closer look

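Cckbr in 18 h replicate 2 was at a log2 ratio of -2.26, far from the other 4 replicates of 18 h, which lay between -0.44 and 0.01. The gap to the nearest of them was 0.802 of the range of the 5, above the Dixon limit of 0.71. Of 5 groups tested in this way, which included the dye effects of Tacr3 and Cckbr, this was the only one past its limit. Chance alone passes about 1 in 20. The tumor signal was 0.433 of its local background. The replicate is 1 polyA array with tumor in Cy3, and all genes spread more widely on it than on any other replicate. The value was -1.35 with a loess curve per print block, -2.20 with median centring and -3.72 with a normexp correction, and the authors' deposited table gave -0.31 on its own log scale. These settings were set side by side after the value was seen.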

How the results depend on the processing

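Of 23 alternatives 9 moved Tacr3 at 18 h, to between -0.47 and -0.13, and the other 14 returned the same value, as the estimate rests on 3 total RNA replicates. The authors' deposited table has Tacr3 at 18 h on 3 arrays, all with tumor in Cy3, at -0.0039, 0.015 and 0.163 in its own log units. For Cckbr at 18 h 14 of 24 alternatives moved the value, to between -0.91 and -0.03 (the last on the authors' values). No value of a receptor passed the threshold in any alternative. Tacr1 at 18 h was 0.17 with total RNA alone or with RNA type as a covariate, and -0.80 to 0.17 when 1 replicate was left out. Leaving out polyA replicate 1 or 2 could only give 0.17, as the dye term takes up the other. On the authors' values (read as natural logs and turned to log2, as for all fits to them here) Tacr1 at 18 h was 0.017. That value rests on replicate 5 alone, as the dye term takes up polyA replicate 1, and it has no SE. In the authors' own log units replicate 1 was at -0.63. Over all times Tacr1 was below 0 on 6 of the 7 arrays where the authors give it. Cckbr at 192 h was 0.048 with a loess curve per print block, 0.13 with median centring, 0.022 with normexp, 0.038 on the authors' values, 0.28 with total RNA alone and 0.38 with RNA type, and -0.18 to 0.39 when 1 replicate was left out. Its average was 0.013 with total RNA alone and 0.023 with RNA type. With median centring Cckbr at 72 h was 0.15 and 192 h minus 72 h was -0.020, which was -0.14 where signal had to reach the background and -0.13 to 0.45 when 1 replicate was left out. On the authors' values 72 h minus 18 h was -0.13. The dye effect of Cckbr was 0.048 with median centring and -0.083 to 0.015 when 1 replicate was left out. Genes called at 192 h were 1 with scaling between arrays, and 0 to 3 when 1 replicate was left out (3 without 18 h replicate 2). With no minimum of replicates they were 1 at 72 h, 3 at 192 h, 5 for 192 h minus 18 h, 1 for 72 h minus 18 h and 3 for 192 h minus 72 h. Genes called for the dye effect were 104 with median centring and 21 on the authors' values, and 16 (without 18 h replicate 3) to 46 when 1 replicate was left out. Ranked among all spots, the median brightness percentile was 70.3 for Tacr1, 69.9 for Tacr3 and 88.7 for Cckbr. On that scale Tacr3 no longer ranked above Tacr1. With the replicate block, Cckbr at 192 h minus 18 h was 0.68 (adjusted p = 0.926), and no call changed. The causes of these shifts were not tested. Signal near the background limits Tacr1, Tacr3 and the most extreme values of Cckbr.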
